A study of Mus musculus with 12 samples.

Results

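The mitochondrial ribosomal proteins were described in mouse muscle satellite cells, the stem cells of skeletal muscle, before and after overnight culture and with or without the chemokine receptor gene *Cxcr4*. Members were the protein-coding rows of the count table whose gene name begins with Mrpl or Mrps followed by a digit, which gave 78 genes of the 55401 rows. Of these, 49 symbols begin with Mrpl and 29 with Mrps. A further 6 rows with such names are annotated as pseudogenes and were left out.

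Mitochondria carry their own ribosome, which translates the few proteins encoded by the mitochondrial genome, all of them core subunits of the respiratory chain and the ATP synthase. Its ribosomal RNAs are made inside the organelle, while every protein of the ribosome is encoded in the nucleus, made in the cytosol and imported. Some of these proteins descend from the ribosome of the bacterial ancestor and others exist only in mitochondrial ribosomes. Satellite cells are small, quiescent cells that enlarge and increase their mitochondrial activity when they leave quiescence.

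By the known structures of the mitochondrial ribosome, 51 members belong to the large subunit and 26 to the small subunit. *Mrps30* and *Mrps18a* are named for the small subunit, but their proteins sit in the large one and were counted there. *Mrps36* belongs to neither, since its product is a part of the oxoglutarate dehydrogenase complex. By their names in the structures, 30 proteins of the large subunit were classed with a bacterial homolog and 21 as found only in mitochondria. In the small subunit these were 16 and 10. *Mrps18a* and *Mrps18b* were classed as found only in mitochondria, although both are related to bacterial S18.

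All mice were adult, carried the *Cxcr4* FL/FL and *Pax7*-ZsGreen alleles and received 80 mg/kg tamoxifen by injection on 5 days, after which they were fed a diet with tamoxifen. The KO mice also carried *Pax7*-creERT2, which deletes *Cxcr4* only in cells that express *Pax7*, while the WT mice had no cre, so that genotype and cre cannot be told apart. *Pax7*-ZsGreen+ cells were sorted from hind limb muscle and lysed at once, called quiescent here, or kept overnight in growth medium, called activated here. There were 4 WT and 4 KO quiescent libraries and 2 WT and 2 KO activated libraries, and no source used here says which came from separate mice, so p-values measure the spread between these libraries only.

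The quiescent libraries held 12775593 to 23717013 counts and the activated libraries 3172164 to 5427280. Levels are CPM, counts relative to the library total after scaling by edgeR's TMM factors. *Cxcr4* had 59.1 to 112 CPM in the quiescent WT libraries and 12.5 to 21.2 CPM in the quiescent KO libraries, and a mean of 23.9 CPM in activated WT against 9.54 CPM in activated KO libraries. One gene with nuclear ribosomal RNA sequence, CT010467.1, took between 11.5 and 40.3% of the counts in activated libraries and from 0.295 to 0.807% in quiescent libraries. *Xist* was at most 7.17 CPM in the quiescent libraries and at least 451 CPM in the activated libraries, while *Ddx3y* of the Y chromosome was at least 289 CPM in the former and at most 2.28 CPM in the latter, so that the sex of the mice, the culture and the depth change together and cannot be told apart. The 8 satellite cell markers summed to 3178 to 5210 CPM in quiescent and 1047 to 1631 CPM in activated libraries. The 6 muscle fibre markers summed to 236 to 840 CPM in quiescent and 6026 to 14910 CPM in activated libraries, while the sums of the endothelial, hematopoietic, fibroadipogenic and smooth muscle markers had lower ranges or lower maxima after culture. Not every marker followed its sum. Of the fibroadipogenic list, *Dpt*, *Col15a1* and *Ly6a* were lower, while *Pdgfra* and *Dcn* went from means of 7.91 and 63.4 CPM to 13.7 and 69.45 CPM in WT. In KO these 2 went from 5.62 and 65.5 CPM to 23.3 and 100 CPM. *Cd3e* of the hematopoietic list also had higher means after culture, and *Itgam* did in WT. The part of these shifts in the results below was not tested. As in any bulk sample, fewer cells of a type and less RNA per cell cannot be told apart.

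The genes lie on 17 chromosomes, 11 of them on chromosome 11 and 8 on chromosome 17, and 0 on the X, Y or mitochondrial chromosome. In the GENCODE annotation of GRCm38 given here, 33 of the 78 had the start of another protein-coding gene on the opposite strand within 1000 bp of their own start, or 42.3%, against 2375 of 22028 protein-coding genes, or 10.8%. One such pair joins 2 members, *Mrpl46* and *Mrps11*, whose start sites lie so that the genes overlap head to head. Exonic bases were shared with another gene in 33 members, and in 18 members the shared part was over 10% of the exon length. Counts of these genes are uncertain where reads were not assigned by strand. For some the doubt stays even with strand, since the shared part on the same strand was 88.0% in *Mrpl53*, 37.0% in *Mrps34*, 23.2% in *Mrps18c*, 19.9% in *Mrps6* and 15.4% in *Mrps24*.

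Promoters were taken from RefSeq on GRCm38.p6, as windows from 250 bases before to 50 bases after each start, and 69 of the 78 members matched with 75 windows. Motifs were searched as exact letters on both strands. CCGGAAG, the core of sites for ETS factors such as GABP, which is known to drive many nuclear genes of mitochondria, was present in 26 of the 75 windows, or 34.7%, against 8.86% of all 32851 windows and 11.6% of protein-coding windows. AAGATGG, the core of the YY1 motif, was present in 17.3% of member windows, 6.34% of all windows and 6.24% of protein-coding windows. GCGCATG, a part of the NRF1 motif, was in 10.7% of member windows against 3.91% and 4.8%. The Sp1 letters GGGCGG were in 52.0% against 35.7% and 46.2%, and the E-box CACGTG in 9.33% against 7.15% and 7.84%. TCAAGGTCA, the ERR motif, was in 0 member windows, 0.423% of all windows and 0.334% of protein-coding windows. These matches describe letters in a window, and no test was made.

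The 150 bases before the start are shown for 2 members that rose after culture and hold the ETS letters, *Mrpl34* at chr8:71464776-71464925 on the plus strand and *Mrpl58* at chr11:115403602-115403751 on the plus strand, and for 2 starts of *Mrpl48*, the 1 member that fell, at chr7:100608302-100608451 and chr7:100583131-100583280 on the minus strand. They were chosen after the values were seen, from windows outside annotated exons. Capitals mark the ETS letters or their reverse complement, and the Sp1 letters in the first *Mrpl48* sequence.
Mrpl34: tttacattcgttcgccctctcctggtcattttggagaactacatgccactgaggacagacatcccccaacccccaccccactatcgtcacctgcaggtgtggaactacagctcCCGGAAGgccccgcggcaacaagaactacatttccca
Mrpl58: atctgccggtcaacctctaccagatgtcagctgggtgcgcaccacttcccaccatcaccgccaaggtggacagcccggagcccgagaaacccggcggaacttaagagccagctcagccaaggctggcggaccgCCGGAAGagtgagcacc
Mrpl48, upstream start: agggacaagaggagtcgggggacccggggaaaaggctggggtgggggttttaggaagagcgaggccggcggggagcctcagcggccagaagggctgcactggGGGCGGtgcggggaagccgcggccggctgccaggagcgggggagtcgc
Mrpl48, downstream start: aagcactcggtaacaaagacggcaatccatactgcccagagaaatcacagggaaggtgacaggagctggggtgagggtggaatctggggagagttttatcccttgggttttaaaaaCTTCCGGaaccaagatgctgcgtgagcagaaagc

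Of the 78 members, 77 had enough counts for a test. *Mrpl53* (chromosome 6, 83109040 to 83109939) had 0 counts in all 12 libraries, and 88.0% of its exonic bases lie within exons of other genes, mainly *Gm42688* on the same strand. Whether its reads were left uncounted for this overlap was not tested, and the counting settings are not known. Nothing can be said of its level.

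Among genes, levels were compared per kilobase of exon, with all annotated exons of a gene merged, which can exceed the length of its mRNA. In quiescent WT libraries *Mrpl24*, a protein beside the exit tunnel of the large subunit, was the highest at 28.4 ± 4.93 CPM per kb (SD, n = 4). It was followed by the small-subunit genes *Mrps6* at 20.3 ± 2.25 and *Mrps7* at 18.9 ± 5.18, and by *Mrpl41* at 17.8 ± 1.74 and the stalk gene *Mrpl12* at 17.3 ± 3.42 CPM per kb (SD, n = 4 each). These 4 neighbours did not differ beyond their SD. The lowest tested members were *Mrps10* at 0.189 ± 0.0669, *Mrpl13* at 0.376 ± 0.0909, *Mrps35* at 0.548 ± 0.0957 and *Mrps22* at 0.578 ± 0.307 CPM per kb (SD, n = 4 each). *Mrps10*, *Mrpl13* and *Mrps35* have 8079, 7936 and 8631 bp of merged exons, against a member median of 2394 bp. Their place therefore depends on this length. Undivided, *Mrps35* had a mean of 4.73 CPM and *Mrpl13* of 2.98 CPM in quiescent WT, above *Mrps18c* at 0.696 CPM. The order differed after culture, when *Mrpl12* stood at 103 ± 18.5 and *Mrpl24* at 21.7 ± 3.57 CPM per kb in WT libraries (SD, n = 2 each). The exons of *Mrpl24* share 26.3% of their bases with *Rrnad1* on the opposite strand. Those of *Mrps6* share 19.9% with *Gm49711* and *Slc5a3* on the same strand. For *Mrpl12* and *Mrps7* the shared parts are 13.1% and 11.9%, on the opposite strand, and *Mrpl41* has no exonic overlap.

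The comparison of activated with quiescent cells asks which transcripts change as satellite cells leave quiescence. The transcripts of the mitochondrial ribosome rose after culture in both genotypes. Summed over the 78 members, the level was 796, 889, 956 and 937 CPM in the quiescent WT libraries and 2335 and 2659 CPM in the activated WT libraries. In KO it was 924, 986, 914 and 1016 CPM in quiescent and 2824 and 2340 CPM in activated libraries. Every activated library lay above every quiescent one. The same split separates culture, sex of the mice, depth, the share of CT010467.1 and the muscle fibre transcripts given above, which cannot be told apart here. The mean rose 2.79-fold in WT and 2.69-fold in KO. As raw shares, which no scaling factor touches, members took 0.0854 to 0.110% of the counts of quiescent libraries and 0.191 to 0.306% of those of activated libraries, or 0.287 to 0.346% when CT010467.1 was left out.

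**Figure D1:**
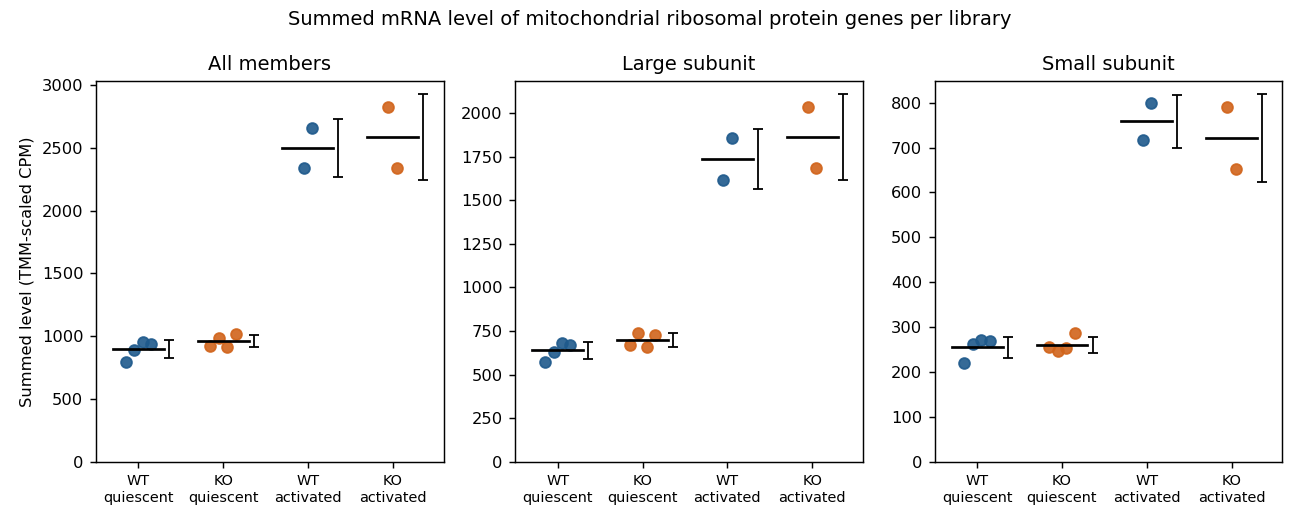
Summed level of the members in each library, in TMM-scaled CPM, for all members and for each subunit. Points are libraries, horizontal lines are group means and the bars beside them are 1 SD. The activated libraries lie between 2335 and 2824 CPM and the quiescent libraries between 796 and 1016 CPM.

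By edgeR's quasi-likelihood test with Benjamini-Hochberg adjustment over 25771 genes, 51 of the 77 tested members were higher in activated WT cells at an adjusted p-value under 0.05 and 1 was lower, against 11.5% of all genes tested that were higher and 18.3% that were lower, and 15.0% and 23.5% of protein-coding genes. That is 66.2% of the members. Past a 2-fold change as well, with a mean normalized count over 10, 50 members were higher, against 9.65% of all genes. In KO cells 52 were higher and 1 was lower, against 13.3% and 20.4% of all genes and 16.7% and 26.3% of protein-coding genes, and 49 passed the 2-fold rule in the higher direction, against 11.1% of all genes. The median log2 fold change of the members was 1.34 in WT and 1.39 in KO. Beside it stood -0.92 and -0.96 over all genes tested, and -0.59 and -0.66 over protein-coding genes. The lower quartile of all genes tested was -4.3 in WT. Genes with at least 10 counts numbered 19717 to 23436 in the quiescent libraries and 10344 to 13411 in the shallower activated ones. How far genes with few counts after culture lower the medians of all genes was not tested. In WT the median of all genes was -0.56 with the compared groups alone and -0.59 with DESeq2. That of the members was 1.40 and 1.42 there. With library totals in place of TMM factors the median of all genes in WT was -1.03 and that of the members 1.15, so that the member median stayed above 0. Over the fits that left out 1 activated library the median of all genes in WT lay between -2.73 and -1.46 and that of the members between 1.29 and 1.52. The WT and KO comparisons share no library, but they come from the same fit, with the same split of culture, sex, depth and CT010467.1. In both, 47 members were called higher, which is 92.2% of the WT calls and 90.4% of the KO calls. This overlap was not counted over all genes, so it is not read as particular to the members.

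**Figure D2:**
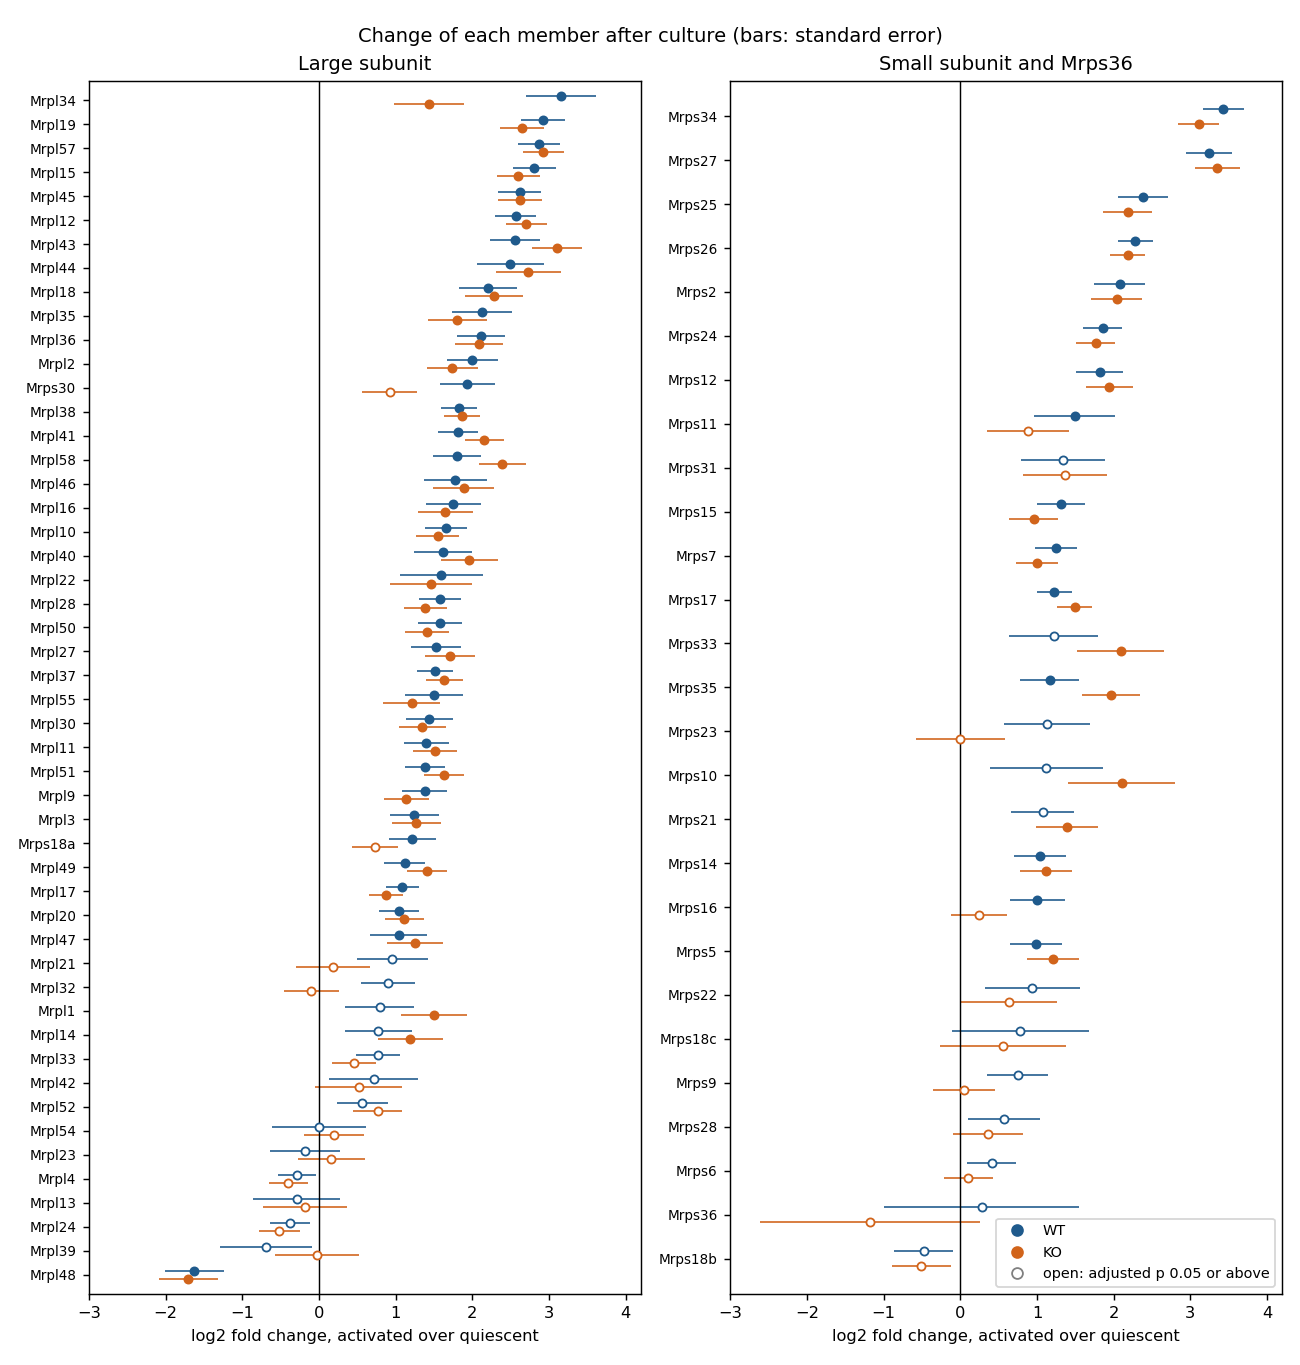
Log2 fold change of each tested member after culture, in WT and KO, with standard errors. Left, large subunit, and right, small subunit and *Mrps36*. Filled points passed an adjusted p-value of 0.05. Most members of both subunits lie to the right of 0 in both genotypes, from 3.43 for *Mrps34* to -1.62 for *Mrpl48* in WT.

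Members of both subunits and of both origins rose. In WT cells 36 of 50 tested large-subunit members rose and 1 fell, with a median of 1.51, and 15 of 26 small-subunit members rose, with a median of 1.19. Of proteins classed with a bacterial homolog, 31 of 46 rose. Of those classed as found only in mitochondria, which include *Mrps18a* and *Mrps18b*, 20 of 30 rose and 1 fell. By place in the ribosome, all 3 genes of the stalk that recruits translation factors rose in WT, as did all 3 of the decoding and mRNA channel region, 4 of 5 at the peptidyl transferase region, 4 of 6 at the exit tunnel and 4 of 5 in the central protuberance, where the remaining one fell. In KO the counts for these regions were the same. The small subunit held 28.6 ± 0.710% of the summed member CPM in quiescent WT and 30.4 ± 0.421% in activated WT libraries (SD, n = 4 and n = 2), and 27.1 ± 1.45% and 27.9 ± 0.0690% in KO.

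*Mrps34*, whose protein is needed for a stable small subunit, had the largest rise in WT. It was at 6.47, 8.87, 7.28 and 6.60 CPM in the quiescent WT libraries and at 71.4 and 86.3 CPM in the activated WT libraries. The KO libraries ranged from 6.10 to 9.98 CPM in quiescence and were at 76.3 and 57.3 CPM after culture. No activated library overlapped a quiescent one, and the rise on the log2 scale was 3.43 in WT (adjusted p = 4.32e-08) and 3.11 in KO, with standard errors of 0.27. Its gene (chromosome 17, 24895116 to 24897502) shares 77.8% of its exonic bases with *Mapk8ip3* on the opposite and *Nme3* on the same strand.

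*Mrps27*, a small-subunit protein found only in mitochondria, was at 4.18, 6.03, 4.52 and 3.66 CPM in quiescent WT libraries and at 45.6 and 41.2 CPM in activated ones. In KO it ranged from 3.44 to 6.61 CPM and rose to 54.2 and 50.9 CPM. The log2 fold changes were 3.24 in WT (standard error 0.30, adjusted p = 1.90e-07) and 3.35 in KO (standard error 0.30, adjusted p = 1.04e-07). The activated libraries of the genotypes stood close together, far above the quiescent range. *Mrps27* shares 24.2% of its exonic bases with *6430562O15Rik* on the opposite strand.

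*Mrpl57*, another protein found only in mitochondria, has no exonic overlap with other genes. It was at 7.20, 13.8, 13.6 and 14.1 CPM in quiescent WT, 84.0 and 93.7 CPM in activated WT, 12.1 to 18.9 CPM in quiescent KO and 125 and 115 CPM in activated KO libraries. Its log2 fold change was 2.87 in WT and 2.93 in KO (standard error 0.27 in each).

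The stalk genes rose together. *Mrpl12*, which encodes the mobile stalk protein and has also been linked to the mitochondrial RNA polymerase, went from 19.0, 27.0, 30.2 and 30.0 CPM to 137 and 177 CPM in WT, and reached 215 and 150 CPM in KO. On the log2 scale it rose by 2.56 in WT, with a standard error of 0.26 and an adjusted p of 6.20e-07. *Mrpl10*, the stalk base, changed by 1.66 and *Mrpl11* by 1.40 on the log2 scale in WT (standard errors 0.28 and 0.29). On the opposite strand, *Mrpl12* shares 13.1% of its exonic bases with *Gm16755* and *Mrpl10* 14.1% with *Gm11574*, while *Mrpl11* has no exonic overlap. *Mrps12*, a protein of the decoding centre, went from a range of 5.88 to 7.89 CPM to 23.0 and 25.8 CPM in WT, a rise of 1.82 on the log2 scale (standard error 0.31, adjusted p = 0.000140).

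The other members among the 10 highest in WT were *Mrpl34* at 3.15, *Mrpl19* at 2.92, *Mrpl15* at 2.81, *Mrpl45* at 2.62, *Mrpl43* at 2.56 and *Mrpl44* at 2.49 on the log2 scale. All are large-subunit proteins, *Mrpl45* beside the exit tunnel at the inner membrane and *Mrpl44* with a ribonuclease III fold. In KO their log2 fold changes were 1.44, 2.65, 2.60, 2.62, 3.10 and 2.73 in that order. *Mrpl15*, *Mrpl34* and *Mrpl45* have no exonic overlap, while *Mrpl19* shares 36.0% of its exonic bases with *Gcfc2* and *Mrpl43* 33.4% with *Twnk*, both on the opposite strand. *Twnk*, the mitochondrial DNA helicase, changed by 3.28 in WT, so that the counts of *Mrpl43* may hold reads of its neighbour if strand was not used. Among the 60 members with at most 10% overlap, 39 rose and 1 fell in WT with a median of 1.28, and 39 rose and 1 fell in KO with a median of 1.38.

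*Mrpl58* encodes a peptidyl-tRNA hydrolase that became part of the large subunit and releases stalled chains. It was at 9.86 to 13.8 CPM in quiescent WT libraries, at 23.4 and 54.7 CPM in the activated WT libraries and at 60.4 and 55.4 CPM in the activated KO libraries. Activated WT replicate 1 was the low one of the 4. The rise of 1.80 in WT on the log2 scale (standard error 0.31, adjusted p = 0.000190) was 1.14 without activated WT replicate 2.

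**Figure D3:**
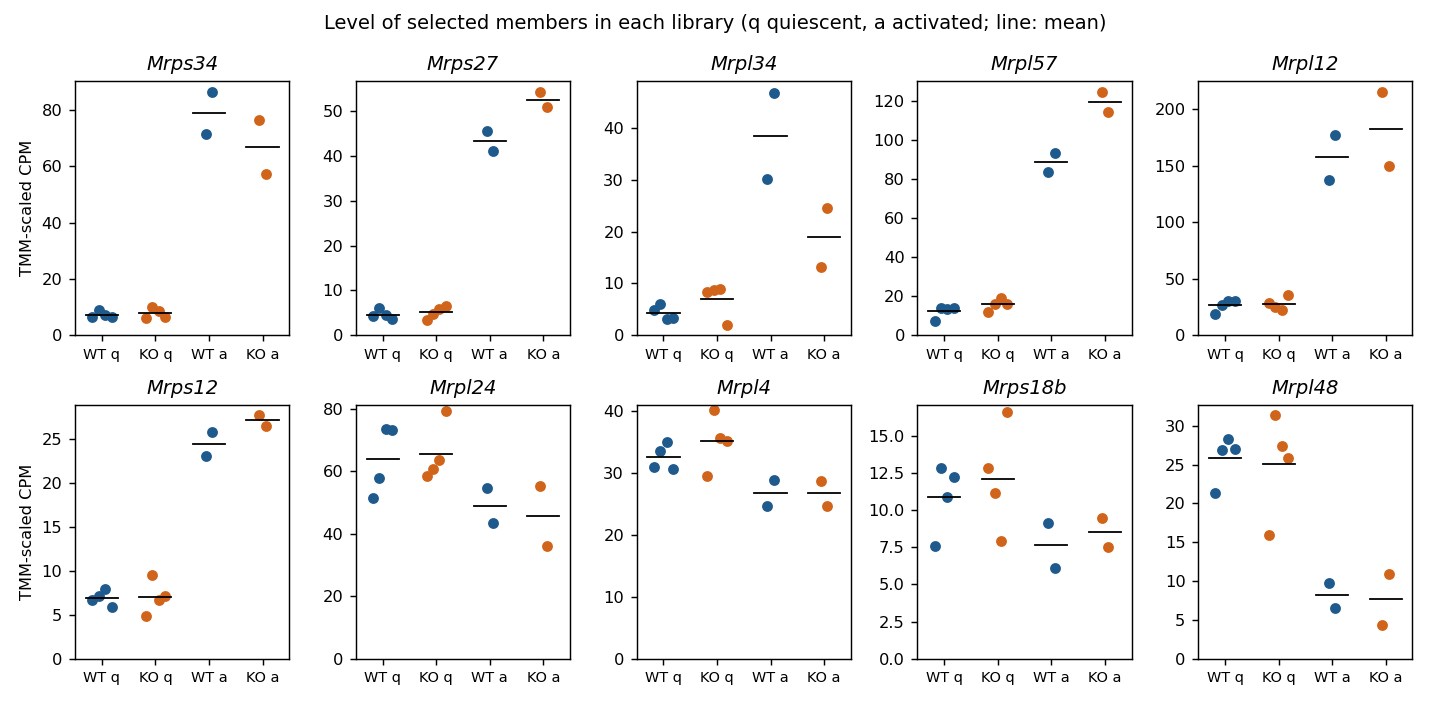
Level of 10 members in each library, in TMM-scaled CPM on linear axes that start at 0. Points are libraries and lines are group means. *Mrps34*, *Mrps27*, *Mrpl34*, *Mrpl57*, *Mrpl12* and *Mrps12* are higher in every activated library than in any quiescent one, and *Mrpl48* is lower in every activated library.

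*Mrpl48*, a central protuberance protein found only in mitochondria, was the 1 member that fell. It was at 21.4, 26.8, 28.2 and 27.1 CPM in quiescent WT libraries and at 9.80 and 6.57 CPM in activated ones. In KO it was at 15.9, 31.4, 27.5 and 25.8 CPM in quiescent and at 4.37 and 10.9 CPM in activated libraries. No activated library reached the quiescent range in either genotype. On the log2 scale it fell by 1.62 in WT (adjusted p = 0.00327) and by 1.70 in KO (adjusted p = 0.00197), each with a standard error of 0.39. Without activated WT replicate 2 the WT value was -1.34 with an adjusted p of 0.0620. The other central protuberance genes, *Mrpl18*, *Mrpl38*, *Mrpl40* and *Mrpl46*, rose.

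Other members had no call in either direction. In WT 25 tested members did not pass, of which 19 had a log2 fold change above 0. Among the most abundant, *Mrpl24* had 64.0 ± 11.1 CPM in quiescent and 49.0 ± 8.05 CPM in activated WT libraries (SD, n = 4 and n = 2), with a change of -0.38 on the log2 scale (standard error 0.27), and *Mrpl4*, at the peptidyl transferase region, had 32.5 ± 2.11 and 26.8 ± 2.99 CPM with a change of -0.29 (standard error 0.25). At the exit tunnel, *Mrpl23* did not pass either, with a log2 fold change of -0.18, while *Mrpl17*, *Mrpl22*, *Mrpl45* and *Mrpl47* rose. *Mrps36*, which is no ribosomal protein, was at 0.142 to 1.84 CPM in quiescent WT libraries and at 1.63 and 0 CPM in activated WT libraries, too low to give a direction.

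The paralogs of bacterial S18 differed. *Mrps18a*, in the large subunit, went from 8.83 to 20.6 CPM in WT, a rise of 1.22 on the log2 scale (standard error 0.30, adjusted p = 0.00464), and had a change of 0.73 in KO (standard error 0.30, adjusted p = 0.0690). *Mrps18b* had a change of -0.48 in WT and -0.51 in KO (standard errors 0.39 and 0.38), with libraries that overlapped. *Mrps18c* was at most 2.12 CPM in every quiescent library and had a change of 0.78 in WT with a standard error of 0.89. *Mrps18b* shares 30.5% and *Mrps18c* 23.2% of the exonic bases with other genes.

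Among the lowest changes that still passed in WT were *Mrps5* at 0.98, *Mrps16* at 1.01, *Mrpl47* at 1.04, *Mrps14* at 1.04, *Mrpl20* at 1.04, *Mrpl17* at 1.09, *Mrpl49* at 1.12 and *Mrps35* at 1.16 on the log2 scale. *Mrps5*, *Mrps14*, *Mrps16*, *Mrps35* and *Mrpl47* lost the call when either activated WT library was left out, with adjusted p-values from 0.056 to 0.406, while *Mrpl17*, *Mrpl20* and *Mrpl49* kept it under every alternative. Called in WT alone were *Mrps11*, *Mrps16*, *Mrps18a* and *Mrps30*, and in KO alone *Mrpl1*, *Mrpl14*, *Mrps10*, *Mrps21* and *Mrps33*. The differences of these 9 between genotypes did not pass the test of the difference itself, with log2 values from -1.02 for *Mrps30* to 0.98 for *Mrps10*.

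The comparison of KO with WT cells asks whether the loss of CXCR4 changes the transcripts. In quiescent cells edgeR's test called 0 of the 77 members higher and 0 lower, against 0.00776% of all genes higher and 0.00776% lower. DESeq2 also called 0, and 1 member had an unadjusted p under 0.05 in edgeR's test. The summed level was 894 ± 71.5 CPM (SD, n = 4) without and 960 ± 49.0 CPM (SD, n = 4) with the deletion, and the ranges of the genotypes overlapped. The median log2 fold change was 0.10, with 54 members above 0, beside a median of 0.02 over all genes. Of all 25771 genes tested, 13762 lay above 0 and 12007 below. In the large subunit 40 of 50 lay above 0 with a median of 0.17, and in the small subunit 13 of 26 with a median of 0.01. The median standard error of a single member was 0.27, which does not give the error of these medians, and 0 calls do not show that the members were equal.

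The member with the smallest p was *Mrps33*, a small-subunit protein found only in mitochondria. It was at 5.06, 2.48, 1.10 and 2.22 CPM in WT and at 1.30, 1.64, 1.08 and 1.42 CPM in KO libraries. WT replicate 1 was the high library and WT replicate 3 lay within the KO range. On the log2 scale KO stood at -0.995 relative to WT (standard error 0.47). By edgeR's test p was 0.0484 before adjustment and 1 after it. The other low ends were *Mrpl27* at -0.29, *Mrpl18* at -0.28, *Mrps25* at -0.27 and *Mrps26* at -0.24. At the high end, *Mrps18c* was at 0.209, 0.426, 1.67 and 0.482 CPM in WT and 1.62, 1.78, 2.12 and 1.13 CPM in KO libraries, or 1.23 higher on the log2 scale (standard error 0.66). *Mrpl34* was at 0.70, *Mrpl32* at 0.53, *Mrpl22* at 0.50 and *Mrps30* at 0.50, with standard errors from 0.28 to 0.44.

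In activated cells edgeR's test called 0 members higher and 0 lower in KO, against 0.0310% and 0.0194% of all genes, and 0 members had an unadjusted p under 0.05. DESeq2 called 0. The sums of 2335 and 2659 CPM in WT and 2824 and 2340 CPM in KO overlapped. The median was 0.07, with 46 members above 0, beside 0.00 over all genes, and the median standard error was 0.40. Of all 25771 genes tested, 11422 lay above 0 and 9690 below, and the median of 0.00 lay among the rest, which were at 0. The median turned to -0.08 without activated WT replicate 1 and to -0.09 without activated KO replicate 1. The lowest adjusted p was 0.650, for *Mrpl34*. As in quiescent cells, 0 calls do not show that the members were equal.

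*Mrpl34*, the counterpart of bacterial L34, was at 30.2 and 46.9 CPM in activated WT and at 13.1 and 24.6 CPM in activated KO libraries. The libraries did not overlap, and the log2 fold change was -1.02 (standard error 0.55, unadjusted p = 0.0796 by edgeR's test). With 2 libraries a side such a gap is common. Of the 77 tested members, 15 were higher and 9 lower in KO without overlap. The share over all genes was not counted, so these counts are not read as a genotype difference of the members. In quiescence *Mrpl34* was at 4.91, 6.03, 3.11 and 3.23 CPM in WT and at 8.30, 8.81, 8.85 and 1.98 CPM in KO libraries, so that 3 KO libraries lay above and 1 below all WT libraries. The difference between the genotype effects in the states was -1.71 on the log2 scale (standard error 0.67, unadjusted p = 0.0193, adjusted p = 0.657), the smallest p of all members.

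The other ends in activated cells were *Mrps23* at -1.15 (3.08 and 2.97 CPM in KO, 7.19 and 6.13 CPM in WT), *Mrps36* at -0.996, *Mrpl21* at -0.55 and *Mrps30* at -0.52 in the lower direction. In the higher direction they were *Mrps18c* at 1.01, *Mrps10* at 0.92, *Mrpl1* at 0.71, *Mrpl39* at 0.60 and *Mrpl58* at 0.59. Their standard errors ran from 0.37 for *Mrpl58* to 1.64 for *Mrps36*. The values of *Mrpl39*, *Mrpl58* and *Mrps36* changed sign without activated WT replicate 1, to -0.27, -0.01 and 5.82.

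Across the states, 0 members differed in their genotype effect at an adjusted p under 0.05, against 0.0% of all genes in each direction, and DESeq2 called 0. One member, *Mrpl34*, had an unadjusted p under 0.05 in edgeR's test. Next to it came *Mrpl32* at -0.996 (standard error 0.51, unadjusted p = 0.0638) and *Mrps30* at -1.02 (standard error 0.52, unadjusted p = 0.0639). The median difference of the members was -0.04, with 36 of 77 above 0 and a median standard error of 0.49, which is wide for a difference in a single member. Of all 25771 genes tested, 13146 lay above 0.

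**Figure D4:**
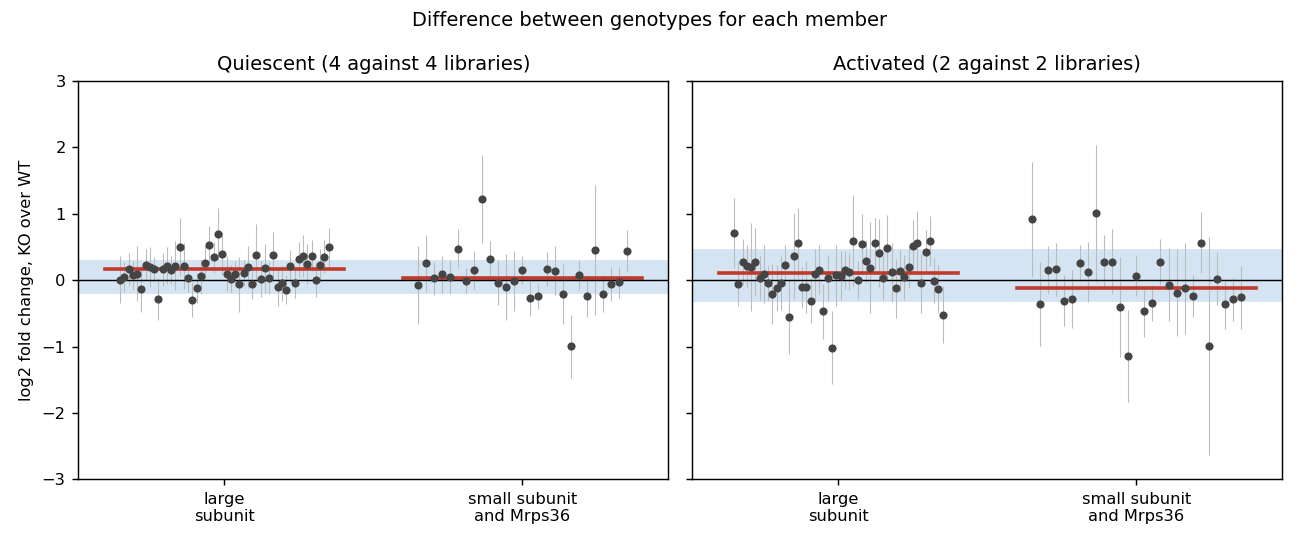
Log2 fold change of KO over WT for each tested member, by subunit, in quiescent cells on the left and activated cells on the right. Points are members with standard errors, red lines are medians, and the shaded band spans the middle quartiles of all genes tested. The points scatter around 0, with medians over all members of 0.10 and 0.07.

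The other genes of mitochondrial translation, taken from lists drawn up for this comparison, also had more members higher than lower after culture. Beside them, 15.0% of protein-coding genes tested were higher and 23.5% lower in WT, and 16.7% and 26.3% in KO. The structural proteins with other names had 4 of 5 tested genes higher in each genotype, among them *Gadd45gip1* at 1.89, *Aurkaip1* at 1.60, *Chchd1* at 1.34 and *Ptcd3* at 1.23 in WT, while *Dap3* had 0.37 (standard error 0.26). Of 24 factors that assemble or modify the mitochondrial ribosome, 15 were higher and 0 lower in each genotype, with medians of 1.53 in WT and 1.42 in KO. The highest were the ribosomal RNA methyltransferase *Mrm2* at 3.76 and the helicase *Ddx28* at 3.38 in WT, and the lowest were *Mterf3* at -1.08 and *Mettl15* at -1.05, which did not pass. *Mrm2* went from 0.867 to 2.41 CPM in quiescent WT libraries to 18.5 and 25.8 CPM in activated ones.

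Of 13 tested translation factors, 7 were higher and 0 lower in each genotype, from *Taco1* at 2.42, an activator of COX1 translation, and the elongation factor *Tsfm* at 2.04 down to *Guf1* at -0.10 and *Mtrf1* at -0.47 in WT. Of 9 tested genes of mitochondrial transcription, replication and RNA stability, 6 were higher and 1 lower in WT and 7 and 1 in KO. *Twnk* and *Tefm*, the transcription elongation factor, led at 3.28 and 2.68, and *Polg*, the mitochondrial DNA polymerase, fell by 1.45 on the log2 scale in WT (standard error 0.29, adjusted p = 0.000745).

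Among the RNAs made inside the organelle, both ribosomal RNAs passed and most mRNAs did not pass in WT. The ribosomal RNAs stood at log2 fold changes of 2.40 for *mt-Rnr1* and 1.77 for *mt-Rnr2* in WT and 1.93 and 1.55 in KO. *mt-Rnr1* was at 524 to 772 CPM in quiescent WT and at 2980 and 3907 CPM in activated WT libraries, with no overlap. The nuclear ribosomal RNA sequence CT010467.1 also went from 0.295 to 0.807% of the counts in quiescent to 11.5 to 40.3% in activated libraries. Whether the libraries kept more ribosomal RNA of both kinds was not tested, so these values are not read as more mitochondrial ribosomes. Of the 13 mRNAs, 3 passed as higher in WT and 7 in KO, beside the 15.0% and 16.7% of protein-coding genes given above, and the medians were 0.70 and 0.86. *mt-Nd3* went from 5.01 to 6.17 CPM in quiescent WT to 20.4 and 29.3 CPM in activated WT libraries, a change of 2.10 on the log2 scale, and *mt-Co3* from 12.2 to 18.0 CPM to 34.1 and 66.1 CPM, a change of 1.70. *mt-Nd1* had 4324 ± 840 CPM in quiescent and 8458 ± 3520 CPM in activated WT libraries (SD, n = 4 and n = 2), a change of 0.97 (adjusted p = 0.0335). *mt-Co1*, which had 15250 ± 2710 and 22310 ± 8550 CPM, did not pass at 0.55 (standard error 0.33), nor did *mt-Cytb* at 0.47 (standard error 0.35), so that the largest changes among these mRNAs were in those with the low CPM values just given. In quiescent WT the means were 1.02 CPM for *mt-Atp8* and 22.4 CPM for *mt-Co2*, against 7682 CPM for *mt-Cytb*. Multi-mapping settings are not known here, so the counted part of the reads may differ between these genes. Levels and changes of the low ones are therefore uncertain, which was not tested. *mt-Atp6* at 0.30 and *mt-Atp8* at 0.14 were the lowest in WT. Between the genotypes, 0 of the genes on these lists were called in either state.

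**Figure D5:**
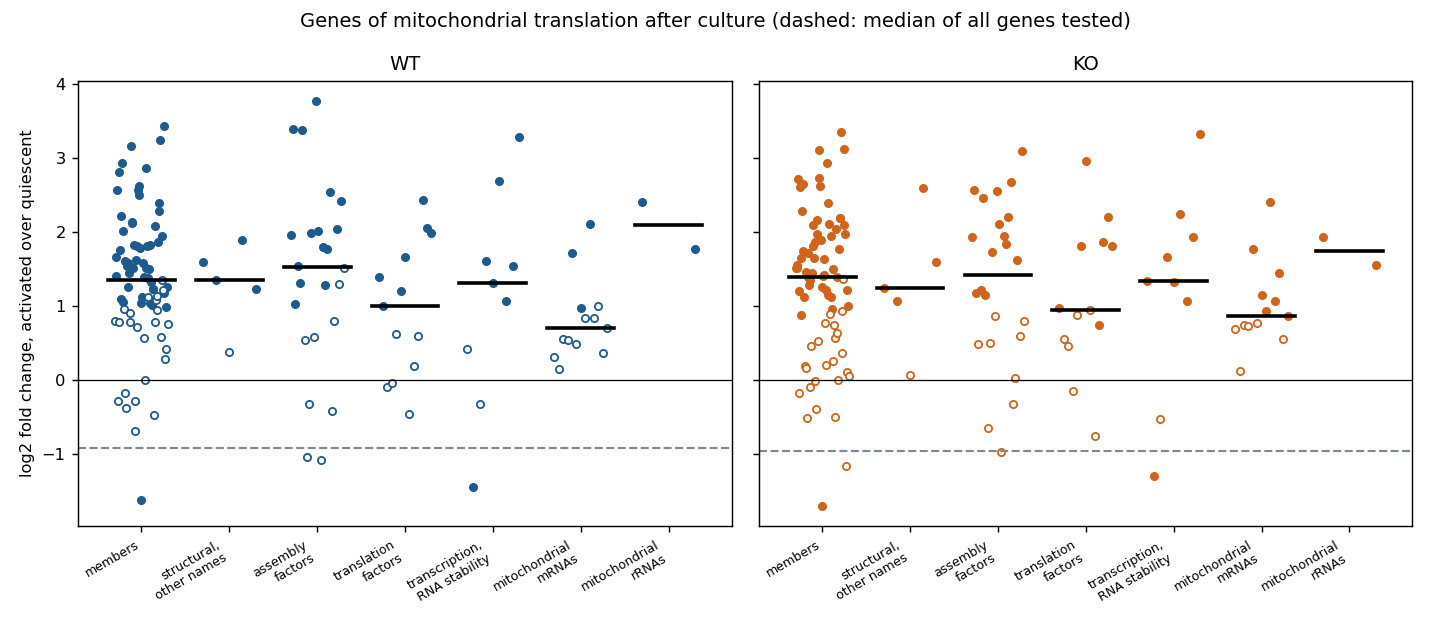
Log2 fold change after culture for the members and the other lists of mitochondrial translation genes, WT on the left and KO on the right. Points are genes, filled where the adjusted p-value was under 0.05, black lines are medians and the dashed line is the median of all genes tested. The median of every list lies above 0 while that of all genes lies at -0.92 in WT and -0.96 in KO. The medians of protein-coding genes, not drawn, were -0.59 and -0.66.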

How the data were processed

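RNA of sorted *Pax7*-ZsGreen+ cells was sequenced in 12 libraries. Per the study's methods, the authors trimmed reads with Trim Galore 0.6.0, mapped them to GRCm38.p6 with STAR 2.7.2a and assigned them to GENCODE genes with Rsubread, and the deposited values are raw counts per gene. Strand and multi-mapping settings are not given in the sources used here. The deposited FPKM values are per group and were not used. Members and lists were chosen with earlier results of these data known.

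Counts were filtered with filterByExpr, which left 25771 genes, and scaled with TMM. One model of 4 group means was fitted with edgeR 4.0.16 in R 4.3.3 and tested with the quasi-likelihood F test, with Benjamini-Hochberg adjustment over all genes tested and a threshold of 0.05. Standard errors are the log2 fold change over the root of F. The fit was tested on simulated counts. Lengths, coordinates and overlaps come from a GENCODE release on GRCm38 other than the one counted.

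Named were the 5 highest and lowest members in each KO against WT comparison, the 10 highest and lowest called members after culture in WT, the 3 smallest p of the difference, the 5 highest and lowest levels per kb, members with a set role, untested members, and the 2 highest and lowest genes of each other list. Alternatives were DESeq2 1.42.0, its size factors, library totals, scaling without CT010467.1, no filter, the compared groups alone, the 2-fold rule, the replicate block and leaving out each library. Samples were grouped by their labels. Total counts ran from 12775593 to 23717013 per quiescent library and from 3172164 to 5427280 per activated library, which limits low members after culture most.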

Additional observations from a re-analysis of the deposited data

Results flagged for a closer look

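Of 92 groups of 4 quiescent libraries, over the 47 named members, 5 held 1 library far from its group by Dixon's criterion, where chance flags about 1 in 20 groups. *Mrpl34* was at 1.98 CPM in quiescent KO replicate 4, against 8.29 to 8.85 CPM in the other KO libraries. In quiescent WT replicate 1, *Mrpl45* was at 11.2 CPM against 9.20 to 9.30 CPM, *Mrpl57* at 7.20 CPM against 13.6 to 14.1 CPM, and *Mrps23* at 4.54 CPM against 2.41 to 2.77 CPM. *Mrpl58* was at 13.8 CPM in quiescent WT replicate 3 and at 9.86 to 10.3 CPM in the other WT libraries. Groups of 2 libraries were not checked.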

How the results depend on the processing

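The counts of called members kept their direction and stayed within 1.5 times the main count in every alternative run. Leaving out 1 library at a time, members called in WT after culture ranged from 43 to 55, lowest without activated WT replicate 2, and in KO from 37 to 55, lowest without activated KO replicate 1, with 0 in the comparisons of KO with WT and in the difference between states. The medians ranged from 1.15 to 1.52 in WT and from 1.23 to 1.56 in KO after culture. In the fits that left out 1 library or both activated libraries numbered replicate 2, *Mrpl18* ranged from -0.48 to 0.07 in quiescent KO against WT. In activated KO against WT, *Mrpl39* ranged from -0.27 to 1.97, *Mrpl58* from -0.01 to 1.34 and *Mrps36* from -7.81 to 5.82, and *Mrps36* ranged from -6.57 to 1.16 after culture in WT, where it was also -0.02 without quiescent WT replicate 2. The cause was not tested. Deviations of same-numbered WT and KO libraries correlated at 0.05, 0.122, -0.05 and 0.296 in quiescence and at -0.024 after culture. The pairs numbered 2 and 4 were the highest of all quiescent pairs, but not every pair passed 0.1 and not every library correlated best with its own number, so the numbers were not taken to pair the libraries. With the replicate block, 49 members were called in WT and 51 in KO after culture and 0 in the other comparisons. An alternative chosen after seeing the data, without both activated libraries numbered replicate 2, called 45 in each genotype. Low members after culture are limited by depth.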
